A study of Mus musculus with 128 samples.

Results

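The 10 genes followed here mark T cells and the cytotoxic programme that T cells share with natural killer (NK) cells: Cd3e, Cd3g, Cd4, Cd8a, Cd8b1, Gzma, Gzmb, Gzmk, Nkg7 and Pdcd1. They were chosen by name, 10 of the 55285 genes in each tissue table, and were read in all 8 tissues at all 4 ages, which gives 80 pairs of gene and tissue. Messenger RNA was sequenced from Aorta, Brain, Heart, Kidney, Liver, Lung, Muscle and Skin of untreated wild-type mice aged 6, 15, 24 and 30 months, with 4 libraries for each tissue and age. In 7 tissues the records name male C57BL/6J mice. The Aorta records give the age in the title and name neither sex nor strain. The question asked of each tissue was how these genes at 15, 24 and 30 months differed from 6 months, and within it how Gzmk moved against Gzma and Gzmb and how Cd8a moved against Cd4.

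T cells recognise antigen through a receptor that signals through the CD3 chains, 2 of which are encoded by Cd3e and Cd3g, so both genes are on in nearly all T cells. Cd4 and the pair Cd8a and Cd8b1 encode the coreceptors that divide helper from cytotoxic T cells. Gzma, Gzmb and Gzmk encode granzymes, the serine proteases that cytotoxic cells release from their granules. Nkg7 encodes a granule membrane protein of cytotoxic cells, and Pdcd1 encodes PD-1, an inhibitory receptor kept on T cells that have met antigen for long. CD8 T cells that carry granzyme K and PD-1 have been described in several organs of aged mice.

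Recovered depth ran from 7.65 M to 82.8 M reads per library, with a median of 15.6 M reads. Of the 32 defining markers of the 8 tissues, 30 were higher in every library of their own tissue than in any other tissue, and Cnn1 of Aorta and Dsp of Skin were the exceptions. Libraries with the lowest correlation to the rest of their tissue were replicate 4 of Heart at 24 months (median Spearman rho 0.903) and replicate 3 of Liver at 30 months (0.935), and replicate 2 of Liver at 30 months stood at 0.958. The labels do not say that replicates are separate mice, so p-values measure the spread between these samples, which may in part be technical. In bulk tissue, a larger share of T cells and more RNA per T cell cannot be told apart.

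The sequences just upstream of the 3 granzyme genes are shown as a description, and their link to RNA levels was not tested. They are the 250 bases before the gene start in RefSeq (GRCm38.p6, an earlier build than the GRCm39 named for the reads), at chr13:113180966-113181215 for Gzmk, chr13:113100982-113101231 for Gzma and chr14:56262335-56262584 for Gzmb, all on the minus strand and written 5′ to 3′ along the gene. Capitals mark matches to 3 motifs of T cell transcription factor families, searched on both strands: T-box (TCACACC), RUNX (TGTGGT) and AP-1 (TGANTCA).
Gzmk: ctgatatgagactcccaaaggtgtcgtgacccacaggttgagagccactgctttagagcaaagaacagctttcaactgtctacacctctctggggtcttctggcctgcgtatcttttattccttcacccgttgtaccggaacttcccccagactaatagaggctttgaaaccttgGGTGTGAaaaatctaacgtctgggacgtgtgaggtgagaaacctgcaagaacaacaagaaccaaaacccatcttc
Gzma: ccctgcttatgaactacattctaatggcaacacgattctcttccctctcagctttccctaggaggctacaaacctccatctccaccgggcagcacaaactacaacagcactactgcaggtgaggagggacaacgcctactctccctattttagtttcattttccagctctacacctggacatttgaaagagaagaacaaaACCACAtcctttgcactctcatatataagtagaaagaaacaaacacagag
Gzmb: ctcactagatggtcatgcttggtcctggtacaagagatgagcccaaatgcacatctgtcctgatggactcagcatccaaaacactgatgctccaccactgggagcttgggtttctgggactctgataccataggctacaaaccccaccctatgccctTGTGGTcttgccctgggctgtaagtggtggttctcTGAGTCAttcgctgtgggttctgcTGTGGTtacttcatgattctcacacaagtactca
In these windows Gzmk held a T-box match whose first base lies 75 bases before the start, and no RUNX or AP-1 match. Gzma held a RUNX match 50 bases before the start. Gzmb held RUNX matches 93 and 34 bases before it and an AP-1 match 58 bases before it, none overlapping another. Of 8 members with a RefSeq promoter entry, Nkg7 was the other with a T-box match, and Cd3e, Cd3g, Cd8a and Pdcd1 held none of the 3 motifs. Across 32851 promoters of the same length, 3.33% held the T-box letters, 14% the RUNX letters and 6.75% the AP-1 letters. A match describes letters and does not show that a factor binds there.

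Values are the deposited normalised reads, scaled within each tissue, and a change is a log2 fold change against 6 months on log2(value + 1) ± SE, with 4 libraries per age. A gene was tested in a tissue only where it passed a filter on low reads, and it was called where limma's adjusted p over all genes of that tissue was under 0.05. Of the 80 pairs, 42 could be tested, and a pair that passed the filter only through its old libraries was bound to differ. At 30 months 22 of the 42 were higher and none was lower, at 24 months 14 were higher, and at 15 months 1 was, where 6.93%, 4.42% and 0.439% of all tests in the same 7 tissues were. Of the 22, 7 were over the filter in all 6-month libraries and 10 in none of them. Those 10 were Cd3g in Heart, Cd8b1, Gzmk and Pdcd1 in Kidney, Cd3e, Cd3g, Cd8a and Gzmb in Liver, and Gzmk and Pdcd1 in Lung. They passed through older libraries, so their p-values are not free of that selection. Without the 30-month libraries, 3 of them (Gzmk and Pdcd1 in Kidney, Gzmb in Liver) would not have passed it. No pair was called lower at any age by limma, edgeR or DESeq2, and at an unadjusted p under 0.05 the lower pairs numbered 1 at 15 months, 1 at 24 months and 0 at 30 months.

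The calls were divided among the tissues. In Lung all 10 genes were tested and 1, 7 and 8 were higher at 15, 24 and 30 months, where 1.24%, 8.91% and 10.7% of all tested genes were. In Kidney 8 genes were tested and 0, 4 and 8 were higher, beside 0.378%, 6.72% and 14.1% of all genes. In Liver 8 genes were tested and 0, 2 and 5 were higher, beside 0.693%, 7.6% and 13.8%. In Heart only Cd3g and Cd4 were tested, and Cd3g was higher at 24 and 30 months but not at 15, beside 3.75%, 4.11% and 0.503% of all genes. None of 7 genes in Aorta was called, where 0.0534%, 2.8% and 3.08% of all genes were higher at 15, 24 and 30 months. Nor was any of 6 genes in Skin (0.161%, 0.887% and 0.167% of all genes), nor Cd4 in Brain (0.0247%, 0.581% and 3.32%), and no member could be tested in Muscle. Without an adjustment, 1 gene in Aorta and none in Skin or Brain had p under 0.05 at 30 months, and edgeR and DESeq2 called none of them there. The 7 Aorta genes had a median change of 1 at 30 months, beside 1.23 in Lung, with SE from 0.51 to 1.17. The lack of a call in Aorta therefore does not show the lack of a rise. In Skin at 24 months, 3 genes had an unadjusted p under 0.05 and were higher, and DESeq2 called 3 while edgeR called none.

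**Figure D1:**
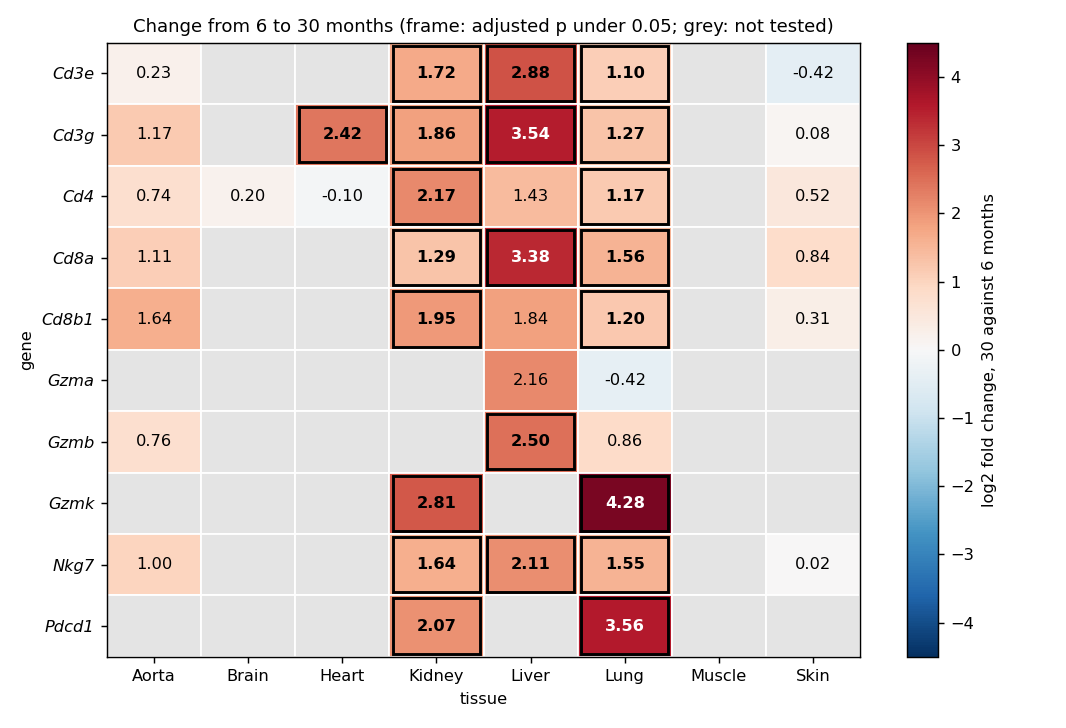
Log2 fold change at 30 against 6 months for each gene (rows) and tissue (columns), as numbers and as colour. Framed cells passed an adjusted p of 0.05, and grey cells were not tested. The 22 framed cells lie in Kidney (8), Lung (8), Liver (5) and Heart (1).

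Both CD3 chains rose in Lung, Kidney and Liver, and Cd3g rose in Heart. Cd3e in Lung stood at 101.1, 103, 99 and 92.4 normalised reads at 6 months and at 225, 247, 160.1 and 229.5 at 30 months. The groups did not overlap, and the change was 1.10 ± 0.23 (adjusted p = 0.00378). At 24 months 3 Lung libraries held 208 to 225 and replicate 4 held 99.7, inside the 6-month range; the change then was 0.83 ± 0.23 (adjusted p = 0.0219), and it was lost without any of replicates 1 to 3 of that age or replicate 3 or 4 of 6 months (adjusted p up to 0.0725). Cd3g in Lung ran from 86.7 to 143 at 6 months and from 206 to 306 at 30 months, a change of 1.27 ± 0.22 (adjusted p = 0.00132).

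In Kidney Cd3g stood at 7.67, 12.5, 8.88 and 12.1 at 6 months and at 39.8, 28.1, 29.9 and 71.6 at 30 months. Every 30-month library was above every 6-month library, and the change was 1.86 ± 0.32 (adjusted p = 0.000533). Cd3e in Kidney changed by 1.72 ± 0.45 (adjusted p = 0.00942), with 12.6 to 44.2 at 30 months against 5.02 to 12.1. The 30-month replicate 4 of Kidney was the highest of its age for both genes, and it also had the highest summed B cell markers (1038 against 92.7 to 228) and leukocyte markers (4730 against 1599 to 2649). Without replicates 3 and 4 of 30 months, 7 of the 8 Kidney genes were still called, Cd3g with an adjusted p of 0.00492.

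In Liver Cd3g stood at 12.6, 5.07, 3.21 and 0 at 6 months and at 46.4, 72.7, 88.8 and 19.5 at 30 months. Replicates 2 and 3 of 30 months were highest and replicate 4 lowest, still above all 6-month libraries. The changes at 30 months were 3.54 ± 0.65 for Cd3g (adjusted p = 0.00142) and 2.88 ± 0.68 for Cd3e (adjusted p = 0.00613). At 24 months they were 2.88 ± 0.65 (adjusted p = 0.0116) and 3.03 ± 0.68 (adjusted p = 0.011). Replicates 2 and 3 were also the 2 Liver libraries of that age least correlated with their tissue, and without both Cd3g was still called (adjusted p = 0.0353) and Cd3e was not (adjusted p = 0.142).

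In Heart Cd3g stood at 0.958, 0.836, 0 and 6.25 at 6 months and at 15.3, 15.4, 7.18 and 8.71 at 30 months. These are few reads, but the groups did not overlap, and the change was 2.42 ± 0.53 (adjusted p = 0.0122, and 0.0515 without replicate 1 of 30 months). At 24 months the change was 2.98 ± 0.53 (adjusted p = 0.00477, and 0.0818 with the 2 ages fitted alone). Cd3e in Heart did not pass the filter and ran from 0 to 6.25 at 6 months and from 1.79 to 8.64 at 30 months.

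**Figure D2:**
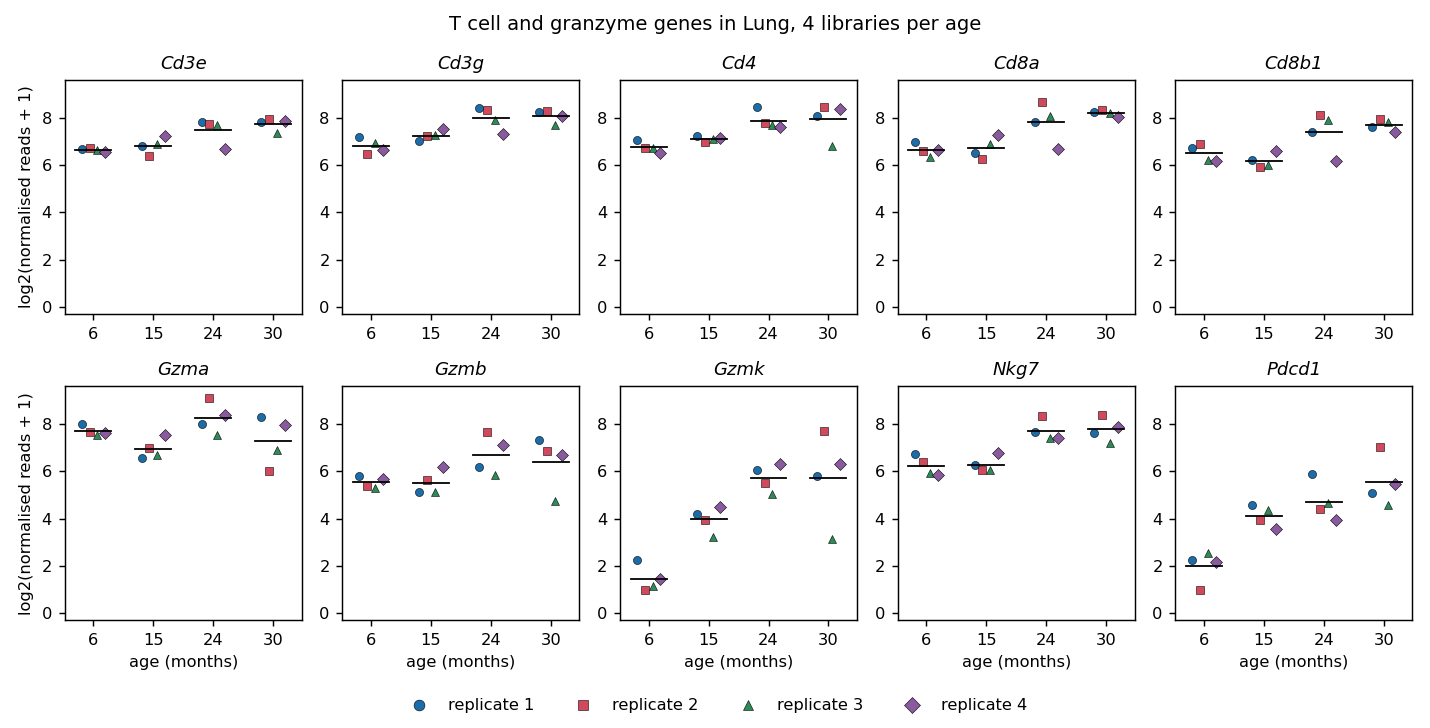
Lung: log2(normalised reads + 1) of each gene against age in months. Each point is a library, its shape the replicate number, and each bar the mean of 4. Gzmk and Pdcd1 are low at 6 months and higher at each later age, while Gzma has its 6-month libraries (186 to 254) inside the 30-month range (63 to 311).

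The coreceptor genes rose in Lung and Kidney, and Cd8a also in Liver. Cd8a in Lung stood at 124, 95.7, 78.7 and 99.3 at 6 months and at 301, 319.7, 290.4 and 260.0 at 30 months. The 30-month libraries lay close together and far above those of 6 months, a change of 1.56 ± 0.31 (adjusted p = 0.00292). Its partner Cd8b1 changed by 1.20 ± 0.32 (adjusted p = 0.0163, and 0.051 without replicate 4 of 6 months). Cd4 in Lung stood at 134, 105, 104 and 89.8 at 6 months and at 268, 350, 111 and 325 at 30 months. Replicate 3 of 30 months lay inside the 6-month range, and the change was 1.17 ± 0.28 (adjusted p = 0.00918).

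In Kidney Cd4 stood at 15.3, 13.8, 8.88 and 16.2 at 6 months and at 57.1, 41.1, 55 and 123 at 30 months. The groups were apart at 24 months too (29 to 52.3), and the changes were 1.56 ± 0.35 at 24 months (adjusted p = 0.00918) and 2.17 ± 0.35 at 30 months (adjusted p = 0.000358). Cd8a in Kidney had 13.4 to 24.3 at 6 months, 17.2 to 28.4 at 24 months and 27.5 to 65.5 at 30 months. It was called at 30 months (1.29 ± 0.30, adjusted p = 0.00465) and not at 24 months (0.30 ± 0.30, adjusted p = 0.581). Cd8b1 in Kidney changed by 1.95 ± 0.51 at 30 months (adjusted p = 0.00962).

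In Liver Cd8a stood at 7.19, 1.69, 3.21 and 3.97 at 6 months and at 32.2, 115, 79.5 and 16.3 at 30 months. Each 30-month library was above each 6-month library, with replicates 2 and 3 highest, and the change was 3.38 ± 0.82 (adjusted p = 0.00761, and 0.148 without those 2). Cd4 in Liver changed by 1.43 ± 0.60 and was not called by limma (adjusted p = 0.0923), whereas edgeR (adjusted p = 0.0428) and DESeq2 (adjusted p = 0.00973) called it. Its 30-month libraries held 46.4, 65, 205 and 17.6, and the last lay inside the 6-month range of 14.4 to 28.8. Cd8b1 in Liver changed by 1.84 ± 0.75 (adjusted p = 0.086), and DESeq2 called it (adjusted p = 0.0296).

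**Figure D3:**
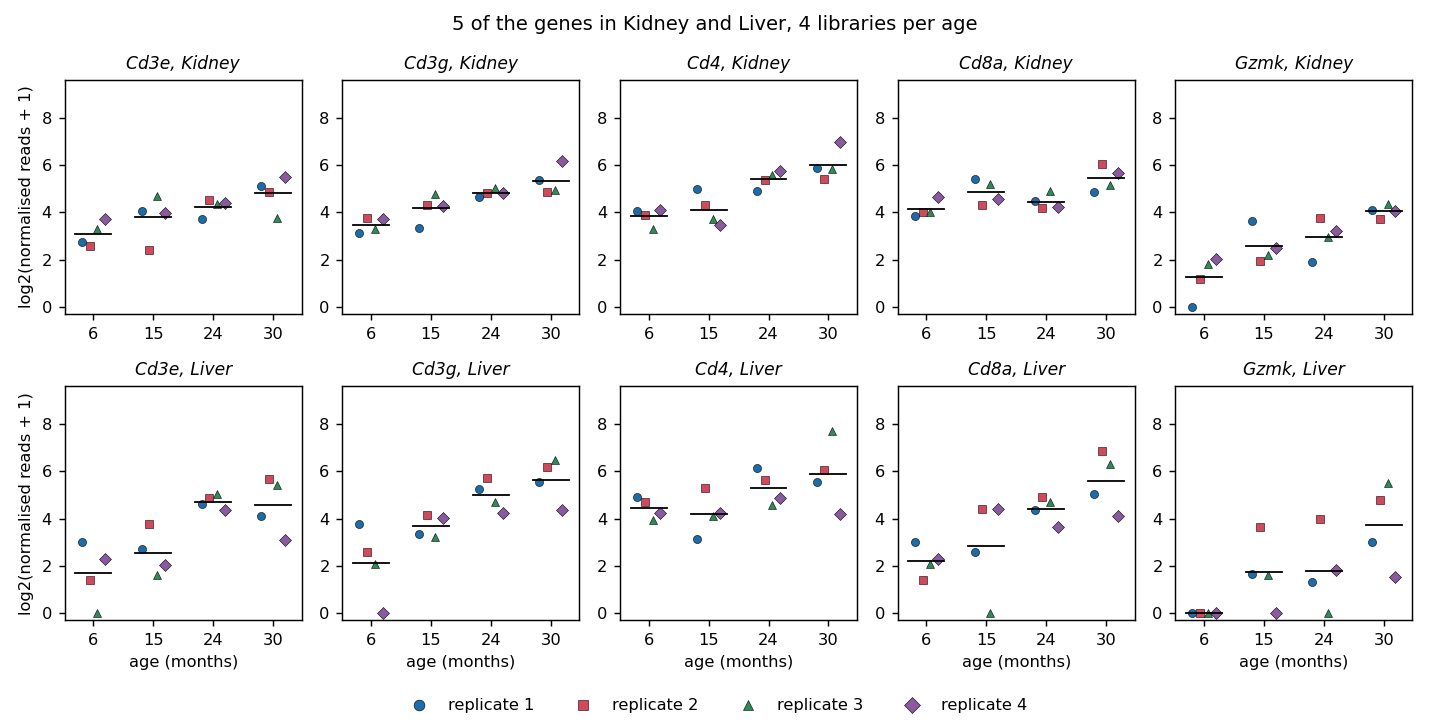
Kidney (upper row) and Liver (lower row): log2(normalised reads + 1) of Cd3e, Cd3g, Cd4, Cd8a and Gzmk against age in months, 1 point per library and a bar at the mean of 4. In Kidney all 30-month points of these genes lie above the 6-month points, and in Liver Cd4 is the exception.

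The ratio of Cd8a to Cd4 within a library was taken as the difference of log2(value + 1) and tested in 5 tissues. Among the genes whose levels followed Cd4 most closely were the macrophage markers C1qa, C1qb and Mpeg1, and Brain held Cd4 with few reads of the CD3 chains. The ratio therefore compares RNA levels, and which cells held the Cd4 RNA was not tested. The added 1 weighs on low values, so the ratio is not free of library scaling where a gene has few reads, as Cd8a had in Liver at 6 months. In Liver it stood at -1.86, -3.29, -1.88 and -1.93 at 6 months and at -0.52, 0.81, -1.36 and -0.10 at 30 months, and the difference of the means was 1.95 with no overlap (exact permutation p = 0.0286, adjusted 0.0667), and at 24 months the exact p was also 0.0286. The difference in Liver was 2.23 with a pseudocount of 0.1 and 1.29 with a pseudocount of 5. No 6-month Liver library was over the filter for Cd8a, which passed it through later libraries. A rise of the ratio in Liver was thus favoured by the selection, and its p-values are not free of that. In Kidney the mean went the other way, from 0.30 to -0.58, and the groups overlapped (exact permutation p = 0.143, adjusted 0.25). At 24 months in Kidney, where Cd4 was called and Cd8a was not, all libraries (mean -0.96) lay below all 6-month libraries (exact permutation p = 0.0286, the smallest that 4 against 4 libraries can give). In Lung the mean went from -0.12 to 0.28 (exact permutation p = 0.4), in Aorta from 1.36 to 1.73 (p = 0.314, exact) and in Skin from 0.39 to 0.70 (p = 0.714, exact).

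Among the granzymes of Lung, Gzmk rose while Gzma and Gzmb were not called. Gzmk stood at 3.77, 0.997, 1.19 and 1.73 normalised reads at 6 months, at 17.5, 14.5, 8.34 and 21.8 at 15 months, at 66.2, 44.1, 31.8 and 78.5 at 24 months, and at 54.3, 209.5, 7.72 and 79.3 at 30 months. Every library of the 3 later ages was above every 6-month library, and replicate 3 stood lowest at 30 months. The changes were 2.52 ± 0.68 at 15 months (adjusted p = 0.0755), 4.27 ± 0.68 at 24 months (adjusted p = 0.00118) and 4.28 ± 0.68 at 30 months (adjusted p = 0.000797). No 6-month Lung library was over the filter for Gzmk, so it was tested through its later libraries and a difference was built in.

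Gzma in Lung stood at 254, 199, 186 and 196 at 6 months and at 311, 63, 119.6 and 245 at 30 months. Its old libraries lay on both sides of the young ones, and the change of -0.42 ± 0.41 was not called (adjusted p = 0.522). Gzmb in Lung stood at 54.3, 40.9, 38.2 and 50.1 at 6 months and at 157, 115, 26 and 101.3 at 30 months. Of its 4 old libraries 3 were higher, and the change of 0.86 ± 0.47 was not called (adjusted p = 0.224); without replicate 3 of 30 months it was (adjusted p = 0.013).

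Within a Lung library the log2 ratio of Gzmk to Gzma was -5.74, -6.65, -6.41 and -6.17 at 6 months and -2.50, 1.72, -3.79 and -1.62 at 30 months. In replicate 2 of 30 months, Gzmk exceeded Gzma. The mean difference was 4.70 with no overlap (exact permutation p = 0.0286, the smallest the design allows, adjusted 0.0667). Against Gzmb the ratio went from a mean of -4.08 to -0.66, a difference of 3.42 (exact permutation p = 0.0286, adjusted 0.0667). Gzmk had few reads at 6 months, so the added 1 weighs on the size of both differences. Gzmk passed the filter in Lung through its later libraries. A rise of both ratios was therefore built into the selection, and their p-values are not free of it. Over 9 alternative settings, the change of Gzmk alone in Lung at 30 months ran from 3.15 to 5.44. Both ratios were also apart from 6 months at 15 and at 24 months, each with an exact p of 0.0286. After adjustment over the 7 ratio tests none passed, although 3 had an unadjusted p under 0.05.

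Per length, a Lung library at 6 months held 12.6 CPM (reads scaled to the total of the library) per kilobase of Gzma, 1.94 of Gzmb and 0.086 of Gzmk. At 30 months the mean levels were 11.1, 4.205 and 3.88, with Gzma still the highest of the 3.

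**Figure D4:**
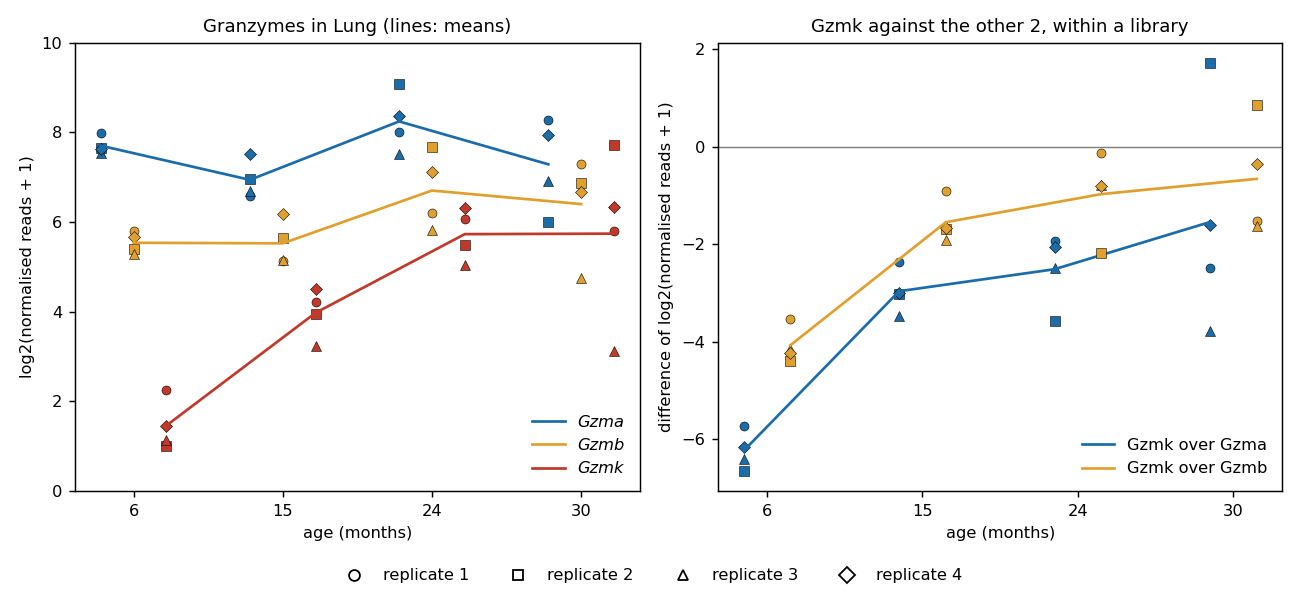
Left: log2(normalised reads + 1) of Gzma, Gzmb and Gzmk in Lung against age in months, 1 point per library and lines through the means of 4. Right: the difference between Gzmk and each of the other 2 within a library. The 6-month differences to Gzma lie between -6.65 and -5.74, and every library of the 3 later ages lies above them, the lowest at -3.79.

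In Kidney Gzmk stood at 0, 1.25, 2.54 and 3.04 at 6 months and at 16.3, 12.2, 19.3 and 15.8 at 30 months. The 30-month libraries were close together and apart from the young ones, and the change was 2.81 ± 0.51 (adjusted p = 0.000863). Gzmk passed the filter here through its 30-month libraries, so that a difference was built into its selection. With no filter the adjusted p was 0.00126, and without replicates 3 and 4 of 30 months it was 0.0129. At 24 months the change of 1.70 ± 0.51 passed narrowly (adjusted p = 0.0428) and was lost on leaving out any of 10 single libraries (adjusted p up to 0.114). Gzma and Gzmb did not pass the filter in Kidney; Gzma held 0 to 12.2 and Gzmb 5.1 to 12.6 at 30 months, against 1.01 to 3.81 and 0 to 2.54 at 6 months. With no filter the change of Gzmb in Kidney was 2.16 ± 0.60 (adjusted p = 0.0224) and that of Gzma 0.67 ± 0.82 (adjusted p = 0.661).

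In Liver Gzmk had no read in any 6-month library and stood at 7.15, 26.3, 45.1 and 1.89 at 30 months. It did not pass the filter. Against a floor of 3 reads over the 4 young libraries, the level pooled over the 30-month libraries was at least 13.8-fold higher. Replicates 2 and 3 of 30 months held the highest values, and the lowest library held 0.0904 CPM beside a floor of 0.0617. The fold therefore describes the pool and not each library. Gzmb in Liver stood at 7.19, 6.75, 4.81 and 1.99 at 6 months and at 28.6, 71.2, 35.8 and 13.2 at 30 months. The groups did not overlap, the change was 2.50 ± 0.49 (adjusted p = 0.00199, with the filter passed through the 30-month libraries), and without replicates 2 and 3 of 30 months the adjusted p was 0.0508. Gzma in Liver changed by 2.16 ± 0.97, with 2.52 to 37.1 at 30 months overlapping 0 to 4.81 at 6 months (adjusted p = 0.116).

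Nkg7, the granule membrane gene, rose in Lung, Kidney and Liver. It stood in Lung at 106, 82.7, 60.8 and 56.1 at 6 months and at 199, 337, 148 and 233 at 30 months, with no overlap. The change was 1.55 ± 0.27 (adjusted p = 0.00147) in Lung, 1.64 ± 0.35 (adjusted p = 0.00251) in Kidney and 2.11 ± 0.67 (adjusted p = 0.0302) in Liver. The Liver call was lost without any of 5 single libraries (adjusted p up to 0.102) and without replicates 2 and 3 of 30 months together (adjusted p = 0.375). At 24 months it was called in Lung (1.47 ± 0.27, adjusted p = 0.00278) and narrowly in Kidney (1.16 ± 0.35, adjusted p = 0.0429, lost on leaving out any of 9 single libraries).

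Pdcd1, which encodes PD-1, was the only member called at 15 months. In Lung it stood at 3.77, 0.997, 4.77 and 3.45 at 6 months, at 23, 14.5, 19.5 and 10.9 at 15 months and at 33, 129.6, 23.2 and 42.7 at 30 months. No library of 15, 24 or 30 months fell into the 6-month range. The change was 2.13 ± 0.50 at 15 months (adjusted p = 0.0461), which was lost on leaving out any of 11 single libraries (adjusted p up to 0.148). It was 2.74 ± 0.50 at 24 months (adjusted p = 0.00278) and 3.56 ± 0.50 at 30 months (adjusted p = 0.000386). Pdcd1 too had no 6-month Lung library over the filter, so a difference was built into its selection. Neutrophil markers were also higher in Lung at the middle ages, 6 of 7 at 15 months (median 2.63) and 3 of 7 at 24 months (median 1.65), and their sum was 1839 to 4030 at 6 months, 6989 to 50820 at 15 months and 5016 to 29590 at 24 months. Their part in the changes of Pdcd1 and Gzmk was not tested.

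In Kidney Pdcd1 stood at 7.14, 2.81, 12.6 and 30.5 at 30 months against 1.92, 0, 3.81 and 2.02 at 6 months. The groups overlapped, and the call (2.07 ± 0.72, adjusted p = 0.0411) rested on replicates 3 and 4, without which the adjusted p was 0.377. In Liver Pdcd1 had no read at 6 months and 1.79, 20.1, 55.7 and 1.89 at 30 months, at least 14.1-fold higher against the same floor, with most of the reads in replicates 2 and 3. In Heart it had no read at 6 months and 1.58 to 5.09 at 30 months, at least 5.25-fold higher.

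Lung replicate 2 of 30 months had the highest Gzmk, Pdcd1, Nkg7, Cd3e and Cd4 of its age and the lowest Gzma (63). Replicate 3 had the lowest Gzmk, Gzmb, Pdcd1 and Cd4, while its Cd8a (290.4) was near that of the others.

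Skin at 6 months showed high CD3 chains with little coreceptor RNA. Cd3g stood at 384, 539, 474 and 642 at 6 months and at 415, 718, 565 and 474 at 30 months. The groups overlapped throughout, and the change was 0.08 ± 0.27 (adjusted p = 0.939). Per length, Skin at 6 months held 34.9 CPM per kilobase of Cd3g and 6.10 of Cd3e, but 0.376 of Cd8a and 0.322 of Cd4. At 24 months Skin held 34.8 of Cd3g, 3.90 of Cd3e, 3.17 of Cd8b1, 1.89 of Cd8a and 1.06 of Cd4, with replicate 4 far above the other 3 for Cd8a and Cd8b1. Lung at 6 months, for comparison, held 6.66 of Cd3g, 4.10 of Cd3e, 1.93 of Cd8a and 2.11 of Cd4.

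Mouse epidermis is known to hold resident T cells with a gamma-delta receptor, many of which carry neither coreceptor. Trdc, the delta constant gene, chosen here after its values were seen, stood in Skin at 326, 467, 342 and 417 at 6 months, against 23.4 to 38.3 for Trac, the alpha constant gene. In Lung the order was the reverse, with 24.9 to 51.3 for Trdc and 82 to 121.5 for Trac. Nkg7 in Skin ran from 59 to 95 at 6 months and from 75.8 to 89.7 at 30 months, while the granzymes had at most 7.22 in any Skin library of either age and Gzmb had 52.7 in replicate 3 of 15 months. Cd8a and Cd8b1 in Skin were highest in replicate 4 of 24 months (197 and 163), and Cd4 was higher in 24-month libraries (23.9 to 63.5) than in most of 6 months (3.76 to 28.7) without being called (1.77 ± 0.48, adjusted p = 0.0682).

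Brain had Cd4 with few reads of the CD3 chains. Cd4 stood at 148, 128.1, 144 and 85.3 at 6 months and at 138, 138, 127.9 and 166 at 30 months, with overlap and a change of 0.20 ± 0.16 (adjusted p = 0.521). Cd3e ran from 0 to 5.34 and Cd3g from 0 to 2.52 over all 16 Brain libraries. Cd8a was low but stood apart in age, with 1.10, 2.67, 0 and 1.74 at 6 months and 7.58, 12.7, 7.91 and 7.28 at 30 months. It did not pass the filter; with no filter its change was 2.17 ± 0.53 (adjusted p = 0.0293), and that of Nkg7 (0 to 1.10 at 6 months, 1.98 to 5.83 at 30 months) was 2.12 ± 0.42 (adjusted p = 0.00697).

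In Aorta no member was called at any age, and 1 library held much of the signal. Replicate 3 of 15 months had 61.6 of Cd3e, 119 of Cd3g, 135 of Cd8a, 99.98 of Gzma, 299.9 of Gzmb, 37.2 of Gzmk, 187 of Nkg7 and 53.5 of Pdcd1. The other 3 libraries of that age held 13.3 to 15.7, 11 to 21.8, 14 to 35, 2.41 to 16.1, 1.47 to 9.66, 0.947 to 3.62, 14 to 20.8 and 2.41 to 6.63 of these genes. That library also had the highest summed NK cell markers of its age (402 against 36 to 91.8) and the highest summed leukocyte markers (4035 against 1521 to 2911); their part in it was not tested. Cd8b1 in Aorta changed by 1.64 ± 0.64 at 30 months (adjusted p = 0.136), and without that 15-month library it was called (adjusted p = 0.0459). Gzmk in Aorta, not tested, had 0 to 1.957 at 6 months and 3.67 to 6.87 at 30 months.

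In Muscle every member was low, and none passed the filter. The highest value was 26.6 of Cd4 in replicate 1 of 6 months, and at 30 months Cd4 ran from 5.91 to 18.1 while no other member exceeded 8.2. Cd3g in Muscle had at most 1.80 at 6 months and 0.881 to 6.38 at 30 months, and with no filter it passed (1.84 ± 0.52, adjusted p = 0.0471). Gzmb in Muscle had at most 0.761 at 6 months and 1.76 to 5.46 at 30 months, and with no filter it passed too (1.85 ± 0.46, adjusted p = 0.0256).

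**Figure D5:**
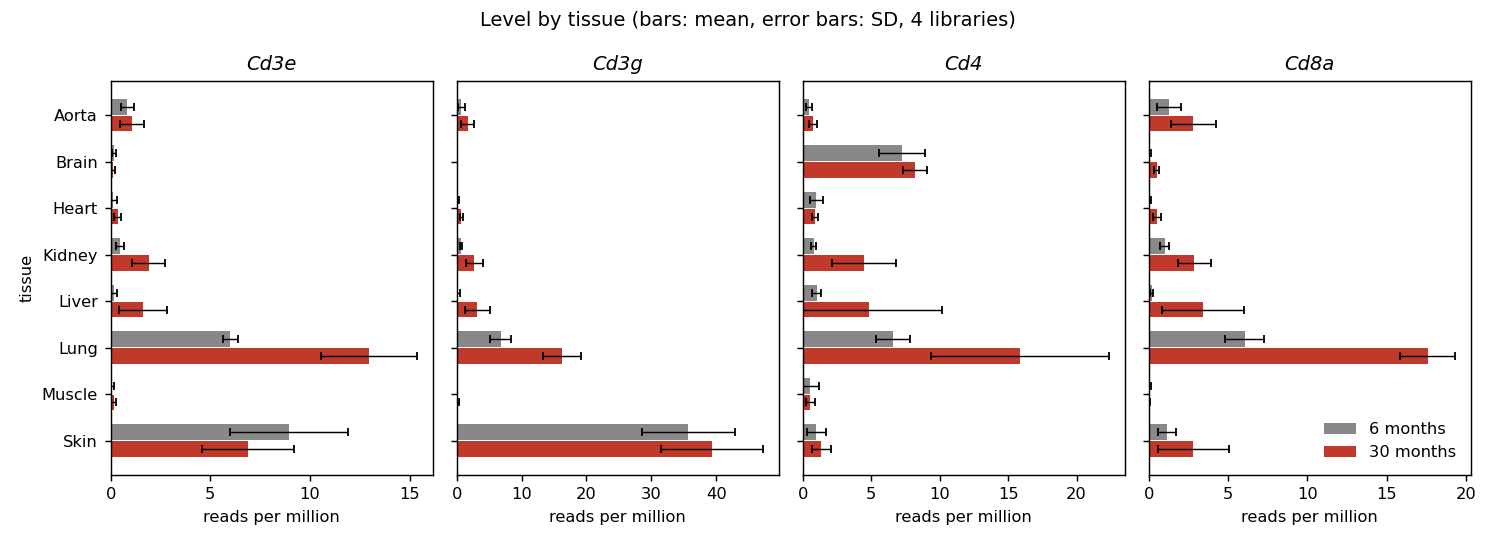
Mean CPM (bars) with SD (error bars, cut at 0) of Cd3e, Cd3g, Cd4 and Cd8a in the 8 tissues at 6 months (grey) and 30 months (red), 4 libraries each. Skin leads for Cd3g (35.7 at 6 months) with 1.18 of Cd8a, and Brain has 7.27 of Cd4 with 0.1502 of Cd3e.

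Between tissues the levels were compared as CPM, as each table was scaled alone. At 6 months Cd3g was highest in Skin (35.7 ± 7.1, SD, n = 4), then in Lung (6.81 ± 1.6), and neither overlapped its neighbour in the order. The next, Aorta (0.725 ± 0.52) and Kidney (0.606 ± 0.15), overlapped each other. Cd3e (8.92 ± 3.0 and 6.00 ± 0.37) and Nkg7 (5.75 ± 1.0 and 4.67 ± 1.5) were highest in Skin and Lung, which overlapped. Cd4 was highest in Brain (7.27 ± 1.7) and Lung (6.57 ± 1.2), which overlapped, and every other tissue had a mean of 1.01 or less. Cd8a (6.05 ± 1.2), Cd8b1 (5.53 ± 1.5), Gzma (12.7 ± 2.1) and Gzmb (2.79 ± 0.50) were highest in Lung, above every library of the next tissue. Gzmk had no clear leader at 6 months, when Brain, Lung, Kidney and Aorta had means of 0.048 to 0.144. At 30 months its order was Lung (5.30 ± 5.2), Liver (1.17 ± 1.2) and Kidney (1.04 ± 0.22), which overlapped as neighbours, and then Aorta (0.316 ± 0.095), which did not overlap Kidney. Pdcd1 had the same first 3 at 30 months, with 3.44 ± 3.0, 1.18 ± 1.6 and 0.862 ± 0.78.

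Tissues were compared in how far each gene moved between 6 and 30 months by an F test over the libraries of all 8 tissues, which 32.2% of 21469 genes passed. The 5 members that passed were Gzmk (adjusted p = 2.04e-05), Cd3g (0.000878), Cd3e (0.00225), Pdcd1 (0.0118) and Cd8a (0.0251). Cd3e and Cd3g also passed under each of 69 alternatives, among them edgeR and limma-voom. Gzmk was lost with edgeR (adjusted p = 0.094) and kept with limma-voom (0.00367), Pdcd1 the reverse (0.0408 and 0.0695), and Cd8a was lost with both (0.159 and 0.161). Cd4 (adjusted p = 0.106), Cd8b1 (0.566), Gzma (0.156), Gzmb (0.296) and Nkg7 (0.329) did not pass, though edgeR called Cd4 (0.00913). The F test uses 1 spread for all tissues, while counting error is larger where these genes are low. It also takes in tissues where a gene failed the filter, such as Heart and Muscle for Gzmk. With almost no reads there, the added 1 holds a change near 0, so a difference between tissues follows in part from detection. On data simulated with 1 fixed spread for all genes, the F test made more false calls than limma-voom, which called neither Pdcd1 nor Cd8a here. That setting differs from these data, so it does not say how often calls on these members are false.

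Other genes of the T cell receptor complex and of T cell identity were called mostly in Kidney, Liver and Lung. This list holds 25 genes. At 30 months 17 of 21 tested were higher in Kidney, 15 of 17 in Liver and 18 of 25 in Lung. Of all genes tested in these tissues, 14.1%, 13.8% and 10.7% were higher. The median changes of the list were 1.47, 2.26 and 0.91, where the medians of all genes were 0.000846, -0.0208 and -0.00213. In Skin none of 24 was called (median 0.0775), in Aorta none of 19 (median 0.575), in Brain none of 10 and in Heart 1 of 9. Lat, the adaptor of the receptor, was higher in 4 of 6 tissues, among them Heart (1.47 ± 0.40, adjusted p = 0.0441). Il7r, the survival cytokine receptor, was higher in Liver (3.32 ± 0.45, adjusted p = 0.000327), Kidney (2.12 ± 0.31) and Lung (1.21 ± 0.15), as were Cd6 and Cd3d. In Lung 1 gene was lower, Lef1, a factor of naive T cells (-0.63 ± 0.19, adjusted p = 0.0275).

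The list of cytotoxic granule and effector genes holds 18. At 30 months 9 of 12 tested were higher in Lung, 5 of 7 in Kidney and 4 of 4 in Liver. In Heart 2 of 4 were, in Brain 1 of 3, and none of 9 in Skin or of 5 in Aorta. Of all genes tested, 10.7% were higher in Lung, 14.1% in Kidney, 13.8% in Liver, 4.11% in Heart and 3.32% in Brain. Ccl5, a chemokine made by cytotoxic T cells, was higher in Liver (4.32 ± 0.77, adjusted p = 0.00127), Lung (2.17 ± 0.27), Heart (2.02 ± 0.40) and Kidney (1.63 ± 0.33). Among 9 inhibitory receptors and related genes, 5 of 9 were higher in Lung, 4 of 6 in Kidney and 4 of 6 in Liver. Lag3, a receptor that is often found together with PD-1, was higher in Kidney (1.86 ± 0.42, adjusted p = 0.00367), Lung (1.46 ± 0.40) and Brain (0.49 ± 0.13). Among 13 chemokine receptors and ligands of T cells, 8 of 12 were higher in Kidney, 8 of 13 in Liver, 6 of 12 in Lung and 4 of 11 in Heart. Cxcr6, a receptor of tissue-resident T cells, was higher in Heart (2.06 ± 0.51), Liver (1.67 ± 0.36), Lung (1.24 ± 0.14) and Kidney (1.17 ± 0.28).

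Markers of other immune cells were in part higher too, and not only where these genes rose. Among all genes tested, 10.7% were higher at 30 months in Lung, 14.1% in Kidney and 13.8% in Liver. In Heart 4.11% were, in Brain 3.32%, and in Muscle 896 of 14561. A count of 1 marker of a list in Lung or Kidney lies near these shares. Of 10 macrophage markers, 9 were higher in Liver, 8 in Lung, 7 in Kidney and 8 in Heart at 30 months. In Brain 8 and in Muscle 7 were higher, where no member was called or could be tested, and in Skin and Aorta none was. The summed level of these markers went in Lung from between 9262 and 9864 to between 14850 and 29960. In Liver it went from between 4992 and 6546 to between 9920 and 27460. In Kidney it went from between 2985 and 3204 to between 4946 and 9405. All 6 markers of leukocytes in general were higher in Lung, Kidney and Heart, and 5 of 6 in Liver. In Brain 4 of 6 were higher and 1 was lower, and in Muscle 2 were higher. Of 10 NK cell markers, which share granzymes with T cells, 1 was higher in Lung (median -0.51) and their sum was 457 to 665 at 6 months and 345 to 908 at 30 months. All 3 tested were higher in Liver, where the sum went from between 35.3 and 50.3 to between 67.9 and 192. Of B cell markers, 7 of 7 were higher in Liver, 2 of 9 in Lung and 1 of 6 in Kidney. Of plasma cell markers 4 of 6 were higher in Kidney and in Liver and 4 of 7 in Lung, of neutrophil markers 2 of 4 in Kidney, 3 of 4 in Liver and none of 7 in Lung (median 1.28), and of dendritic cell markers none of 6 in Kidney, 3 of 6 in Liver and 3 of 8 in Lung. Of mast cell markers 1 of 6 was higher in Lung, and of red blood cell markers none was in these 3 tissues. No marker of these lists was at 0 in all libraries of Lung, Kidney or Liver, and their part in the changes of the T cell genes was not tested.

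Within tissues, the genes whose levels followed a member most closely over single libraries were listed by Pearson's r, as a description. For Cd3e, over 80 libraries of 5 tissues, they included Ptpn7, Rasal3, Cd3d and Trbc2 (r = 0.77 to 0.78). For Cd8a, over the same libraries, they were Ms4a4b, Ccl5, Cd3d, Gimap3 and Trbc2 (r = 0.71 to 0.77). For Cd4, over 112 libraries of 7 tissues, they were C1qa, C1qb, Cd300a, Aif1 and Mpeg1 (r = 0.73 to 0.75), and 3 of these 5, C1qa, C1qb and Mpeg1, stand in the macrophage list. For Gzmk, over 32 libraries of Lung and Kidney, Ccl5 came first (r = 0.84), then Got1, Serpina1b, Pde1b and Ucp2. For Gzma, over 32 libraries of Lung and Liver, they were Elmo1, Slc8a1, Kcnab2, Tbc1d1 and Skap1 (r = 0.77 to 0.79). Libraries of a tissue share their scaling and the age trend, so such values do not show shared control.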

How the data were processed

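The authors deposited 1 table per tissue with normalised reads per gene and library, a signal on a linear scale. The submitters' processing notes name FastQC, STAR, RSEM, DESeq2 and GRCm39; the gene annotation behind them is not stated there. All values were whole multiples of 1 read within 0.01 reads, which gave back the reads and the depth of each library.

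Values were fitted as log2(value + 1) with limma 3.58.1 (trend) in R 4.3.3, 1 mean per age over the 16 libraries of a tissue. Genes passed a minimum count of 10 (edgeR's filter) and a Benjamini-Hochberg adjusted p under 0.05. The difference between tissues was an F test over the libraries of all tissues, and 7 ratios were tested by exact two-sided permutation over 70 splits. Alternatives used edgeR 4.0.16, DESeq2 1.42.0, limma-voom, TMM scaling, other pseudocounts and filters, and fewer libraries; those leaving out 2 libraries and limma-voom for the F test were chosen after seeing the data. Scripts were tested on simulated data. Tables and figures used Python 3.11.15, pandas 2.3.3 and matplotlib 3.10.9.

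Members and lists were chosen with earlier results of these data known. Text names all members, at most 4 genes per list (those higher in most tissues) and the 5 genes most correlated with each of 5 members, of which 1 is not reported here. Replicates differed by more than counting noise (lowest chi-square per degree of freedom 2.49). Within a tissue, same-numbered libraries of different ages did not deviate together as a rule (median correlation 0.0285), so no pairing was used. Across tissues, libraries of the same age and replicate number had a consensus correlation of 0.0146. The labels do not say whether such libraries come from the same mouse.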

Additional observations from a re-analysis of the deposited data

Results flagged for a closer look

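Among 168 groups of 4 libraries looked at, 3 groups had 1 value far from the other 3, and these came from 2 libraries, where chance gives about 1 in 20 groups. In Aorta at 15 months, replicate 3 held 61.62 normalised reads of Cd3e, and the others held 13.26 to 15.69. The same library held 187.2 of Nkg7, and the others 13.96 to 20.83. In Lung at 24 months, replicate 4 held 99.74 of Cd3e, and the others 207.8 to 224.6.

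The F test found tissues to differ in the change at 30 against 6 months for Cd3e (adjusted p = 0.00225), Cd3g (0.000878), Cd8a (0.0251), Gzmk (2.04e-05) and Pdcd1 (0.0118), fitted with limma. Cd3e and Cd3g also passed with edgeR and limma-voom. Cd8a passed with neither (0.159 with edgeR and 0.161 with limma-voom), Gzmk was lost with edgeR (0.094) and Pdcd1 with limma-voom (0.0695).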

How the results depend on the processing

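No called result changed direction. Of the 10 genes over all tissues, the 1 call at 15 months became 0 with edgeR, 3 with DESeq2, 0 with no filter on low values, 2 with a pseudocount of 0.1, 0 with a pseudocount of 5, 3 with the 2 ages fitted alone and 2 with the replicate block, and 0 to 2 on leaving out 1 library. With no filter on low values the count at 30 months was 2 in Brain, 2 in Heart and 2 in Muscle, since more genes were tested. Leaving out 1 library gave 0 to 1 in Heart, 0 to 1 in Aorta and 4 to 8 in Liver. Liver had 8 with DESeq2, and 1 without 30-month libraries 2 and 3. The number of genes whose change differed between tissues was 5, and 3 with a pseudocount of 0.1 and 3 with limma-voom. Apart from the filter and smaller groups, the cause was not tested.

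The replicate block gave 2, 13 and 21 calls at 15, 24 and 30 months against 1, 14 and 22. Within a tissue, deviations of same-numbered libraries of different ages had correlations from -0.561 to 0.496 (median 0.0285), with 41 of 192 pairs over 0.1. The ratio tests cannot pass with 1 library left out (smallest exact p 0.0571) or under paired sign flips (0.125), which says nothing about their stability. Low reads limit what can be seen in Brain, Heart and Muscle.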
